A study of Mus musculus with 4 samples.

Results

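The genes described here encode 10 enzymes, most of them of ammonia disposal and amino acid breakdown. They were chosen by symbol: Cps1, Otc, Ass1, Asl, Arg1, Hal, Sds, Gls2, Etnppl and Aldh1b1. All 10 were found once each among the 32285 genes listed in every matrix. They were measured in 4 mouse liver sections with Visium, in which tissue is laid on an array of barcoded spots and each captured messenger RNA is counted once by its unique molecular identifier (UMI). STAM20w and STAM16w are sections of the STAM model at 20 and 16 weeks, a metabolic model of hepatocellular carcinoma on fatty, inflamed liver with type I diabetes. DEN30w and DEN22w are sections at 30 and 22 weeks of the DEN+CCl4 model, in which carcinogen damage to DNA is combined with liver fibrosis. Each model and time had 1 section, and no untreated liver was analysed here. The mouse strain, sex, start of the week count and number of animals are not in the labels used here. The 2 models share no time, so model and time cannot be told apart, and p-values measure only the spread between these sections, which may be technical.

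The liver lobule runs from portal tracts, where nutrient-rich blood enters, to the central vein, where it leaves. Hepatocytes near the portal tract carry most of the urea cycle, which turns toxic ammonia into urea, and much of the breakdown of amino acids that feeds it. Hepatocytes at the central vein instead capture leftover ammonia as glutamine, through the synthetase encoded by Glul. Cps1 makes carbamoyl phosphate from ammonia in the mitochondrion, Otc joins it to ornithine, Ass1 and Asl build and split argininosuccinate in the cytosol, and Arg1 releases urea. Hal starts the breakdown of histidine, Sds that of serine, Gls2 (the liver glutaminase) frees ammonia from glutamine, Etnppl breaks down phosphoethanolamine, and Aldh1b1 is a mitochondrial aldehyde dehydrogenase. The genes from Hal to Aldh1b1 are called amino acid genes or enzymes here as a group name, although the substrates of Etnppl and Aldh1b1 are not amino acids.

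Kept spots numbered 2833 in STAM20w, 2080 in STAM16w, 2968 in DEN30w and 2746 in DEN22w, with medians of 12761, 9711.5, 9423 and 7302.5 UMIs per spot. All 8 markers of hepatocytes fixed for this work were detected in each section, with summed levels from 38538 to 86084 UMIs per 1000000 (CPM). The members had 1040 UMIs (Etnppl in STAM20w) to 91703 UMIs (Ass1 in DEN30w) per section, which gave narrow counting intervals. Counts per gene are 3′ tags, and levels are set side by side here only within a gene. A spot covers several cells, so fewer cells of a type and less RNA per cell cannot be told apart.

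The genes lie on 7 chromosomes of GRCm38: Cps1 (ENSMUSG00000025991; chromosome 1, 67122426 to 67231267), Otc (ENSMUSG00000031173; chromosome X, 10252230 to 10321024), Ass1 (ENSMUSG00000076441; chromosome 2, 31470270 to 31520670), Asl (ENSMUSG00000025533; chromosome 5, 130011258 to 130024381) and Arg1 (ENSMUSG00000019987; chromosome 10, 24915207 to 24927470) of the urea cycle. The others are Hal (ENSMUSG00000020017; chromosome 10, 93488768 to 93516761), Sds (ENSMUSG00000029597; chromosome 5, 120476547 to 120483932), Gls2 (ENSMUSG00000044005; chromosome 10, 128194635 to 128210004), Etnppl (ENSMUSG00000019232; chromosome 3, 130617448 to 130635750) and Aldh1b1 (ENSMUSG00000035561; chromosome 4, 45799022 to 45804608). Arg1, Hal and Gls2 share chromosome 10, and Asl and Sds share chromosome 5.

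The first comparison placed these genes along the portal to central axis of the diseased livers. Spots were ordered by a zone score built from 8 portal and 8 central landmark genes, none of them a member, and cut into 3 equal parts per section, called the portal, middle and central zones, leaving out 3 compact patches of STAM20w described further on. All 10 members were higher in the portal than in the central zone in 4 of 4 sections, where 6.69% of all genes were, and all 10 passed edgeR's quasi-likelihood test over 12610 genes with section as a block. By comparison, 4.58% of all tested genes passed in that direction and 5.0% in the other. The members were chosen as periportal genes, with earlier results of these data known, so these counts are a description and not independent evidence. The median log2 difference was 1.07 over the members and -0.0056 over all genes tested. The middle zone lay between the other two for every member in every section, a pattern that 2.09% of all genes showed. The 5 urea cycle genes had shallower gradients than the 5 amino acid genes in each section, as a description of these members. Summed urea cycle UMIs were 1.78, 1.62, 1.41 and 1.58 times as high in the portal zone as in the central zone of STAM20w, STAM16w, DEN30w and DEN22w, and summed amino acid enzyme UMIs were 2.78, 2.87, 2.24 and 2.35 times as high.

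Among the amino acid enzymes, Etnppl had 52.6, 181, 221 and 408 CPM in the portal zone of STAM20w, STAM16w, DEN30w and DEN22w, against 15.1, 57.0, 84.5 and 142 CPM in the central zone. Its log2 difference was 1.67 (SE 0.070, adjusted p = 1.2e-08) by edgeR, and it ranked 4 of 12610 genes by size of difference. In the same order of sections, Sds had 539.95, 592, 1669 and 1968 CPM on the portal side, against 176, 199.6, 622 and 762 CPM on the central side, a log2 difference of 1.58 (SE 0.065, adjusted p = 1.2e-08). The portal ranges of Sds and of Etnppl overlapped the central ranges across sections, but within a section the portal value was at least 2.58 times the central one. Aldh1b1 gave 248, 266, 877 and 841 CPM in portal spots and 91.4, 76.0, 465 and 359.6 CPM in central spots, a log2 difference of 1.42 (SE 0.098, adjusted p = 9e-07). Its ratio was highest in STAM16w (3.50) and lowest in DEN30w (1.89), the widest spread of any amino acid enzyme here. Hal gave 275, 218, 415 and 528 CPM in portal spots and 111, 79.99, 191 and 252 CPM in central spots (log2 difference 1.32, SE 0.066, adjusted p = 7.6e-08). For Gls2 the portal values were 436, 522, 992 and 1012 CPM, against 165, 207, 502 and 508 CPM centrally (log2 difference 1.27, SE 0.073, adjusted p = 1.7e-07). Both had larger ratios in the 2 STAM sections than in the 2 DEN+CCl4 sections.

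Within the urea cycle, Cps1 had 2449.7, 1857, 2756 and 2864 CPM in the portal zone of STAM20w, STAM16w, DEN30w and DEN22w, against 1331, 1183, 2234 and 2022 CPM in the central zone, a log2 difference of 0.67 (SE 0.081, adjusted p = 0.00012) by edgeR. Otc, the next step, had 297, 380.1, 502 and 575 CPM in portal spots, against 176, 243, 441 and 455 CPM in central spots, and the smallest difference of the 10 members, 0.57 (SE 0.078, adjusted p = 0.00037). Both had their flattest gradient in DEN30w, where the portal to central ratio was 1.23 for Cps1 (interval 1.21 to 1.25) and 1.14 for Otc (interval 1.10 to 1.18). Intervals on counts here are exact at 95% and cover counting error only. Ass1 gave 1266, 1343, 3147 and 3443 CPM in portal spots and 827, 865, 2100.3 and 1937 CPM in central spots (log2 difference 0.76, SE 0.075, adjusted p = 2.4e-05), with its steepest ratio in DEN22w. For Asl the portal values were 806, 1069.9, 875 and 1079 CPM, against 445, 623, 508 and 667 CPM centrally (log2 difference 0.87, SE 0.063, adjusted p = 1.3e-06). Arg1 stood at 1347, 803, 1361 and 1315 CPM on the portal side, against 693, 461, 859.6 and 803 CPM on the central side (log2 difference 0.87, SE 0.066, adjusted p = 1.9e-06). The fitted values use trimmed-mean scaling and so differ slightly from ratios of CPM.

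**Figure D1:**
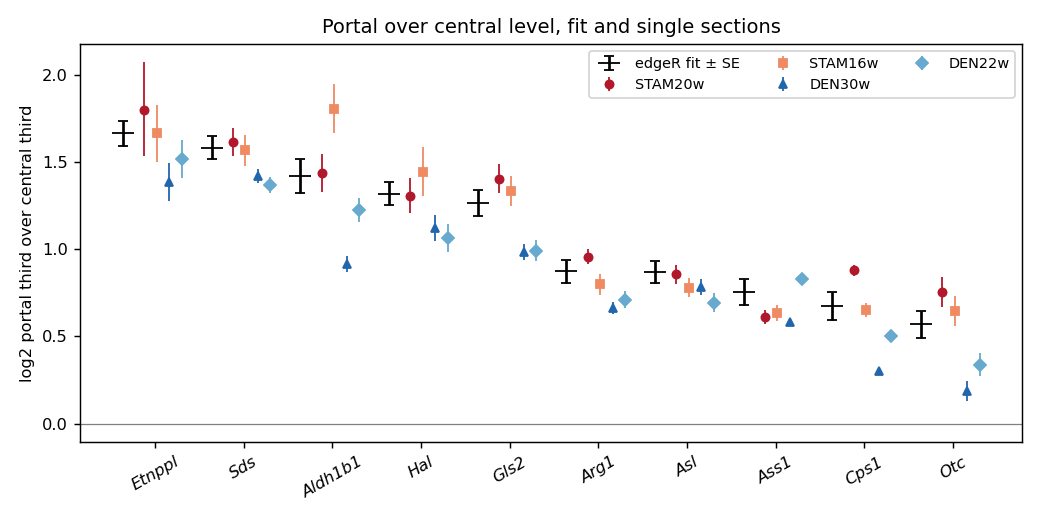
Log2 ratio of the portal zone over the central zone for each gene (vertical axis, log2 units); black bars are the edgeR estimate ± SE over 4 sections, coloured points single sections with exact 95% counting intervals. All points lie above 0, the amino acid enzymes from Etnppl to Gls2 above the urea cycle genes from Arg1 to Otc in the fit.

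The promoters of Etnppl, Aldh1b1 and Hal, with steep gradients, and of Otc, with the flattest, are shown so that their letters can be compared. RefSeq's promoter table for GRCm38.p6 held 5 of the 10 members, these 4 and Ass1. Each window runs from 250 bases before to 50 bases after the start given in that table, on the plus strand: Etnppl at chr3:130617198-130617497, Aldh1b1 at chr4:45798772-45799071, Hal at chr10:93488518-93488817 and Otc at chrX:10252055-10252354. Capitals mark any match, on either strand, to 5 motifs. The TATA box was searched as TATAAA. The core of sites for HNF4, a factor of hepatocyte genes, was searched as CAAAG. Cyclic AMP response elements were searched by the core TGACG. For C/EBP factors the letters were TTGCNNAA, where N is any base. The glucocorticoid receptor core was searched as TGTTCT.
Etnppl promoter: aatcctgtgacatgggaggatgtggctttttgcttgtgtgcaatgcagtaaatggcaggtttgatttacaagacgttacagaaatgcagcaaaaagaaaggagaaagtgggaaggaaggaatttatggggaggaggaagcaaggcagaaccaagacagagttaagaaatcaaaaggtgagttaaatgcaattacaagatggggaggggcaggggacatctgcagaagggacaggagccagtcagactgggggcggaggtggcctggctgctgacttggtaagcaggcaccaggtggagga
Aldh1b1 promoter: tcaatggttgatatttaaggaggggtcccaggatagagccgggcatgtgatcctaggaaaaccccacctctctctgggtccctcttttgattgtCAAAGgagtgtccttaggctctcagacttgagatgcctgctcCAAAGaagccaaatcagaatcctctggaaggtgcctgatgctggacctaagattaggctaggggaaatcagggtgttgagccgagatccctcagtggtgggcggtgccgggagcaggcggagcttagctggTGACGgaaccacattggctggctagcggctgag
Hal promoter: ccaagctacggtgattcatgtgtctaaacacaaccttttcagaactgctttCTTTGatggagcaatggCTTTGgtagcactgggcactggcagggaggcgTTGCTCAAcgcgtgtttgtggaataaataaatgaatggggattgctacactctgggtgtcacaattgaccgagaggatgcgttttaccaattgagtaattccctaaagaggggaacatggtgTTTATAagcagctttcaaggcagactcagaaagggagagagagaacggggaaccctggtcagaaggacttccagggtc
Otc promoter: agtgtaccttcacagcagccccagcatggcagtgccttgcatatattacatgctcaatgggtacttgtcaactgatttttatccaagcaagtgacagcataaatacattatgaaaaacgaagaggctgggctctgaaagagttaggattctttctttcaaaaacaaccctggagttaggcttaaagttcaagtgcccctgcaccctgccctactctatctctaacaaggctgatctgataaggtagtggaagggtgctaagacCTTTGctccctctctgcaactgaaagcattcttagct
Hal held a match to the TATA box letters on the minus strand, a C/EBP match and a pair of HNF4 cores. Aldh1b1 held a pair of HNF4 cores and a cyclic AMP core. Otc held an HNF4 core after its start, and Etnppl and Ass1 held none of the motifs in these windows. The HNF4 core was thus in 3 of 5 member promoters, against 53.9% of all 32851 promoters. The TATA box was in 13.6%, the cyclic AMP core in 20.8%, the C/EBP motif in 10.8% and the glucocorticoid receptor core in 19.0% of all promoters. No motif matches overlapped each other. The matches are a description of letters. No motif was common to Etnppl, Aldh1b1 and Hal in these windows, and the HNF4 core of Aldh1b1 and Hal was also in Otc.

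The slope was also read in finer steps. With each section cut into 10 equal parts by zone score, 6 to 9 of the 9 steps toward the portal end were upward for every member and section. In the most portal over the most central of these parts, the ratio of Etnppl was 7.05, 4.79, 3.45 and 3.85 in STAM20w, STAM16w, DEN30w and DEN22w. For Sds it was 4.90, 3.75, 3.52 and 3.43 and for Aldh1b1 4.41, 4.79, 2.39 and 3.03 in the same order. Otc, at 2.26, 1.93, 1.26 and 1.34, and Cps1, at 2.60, 1.86, 1.40 and 1.58, were the shallowest members in DEN30w and DEN22w. In STAM20w and STAM16w, Ass1 was close to or below them, at 1.90 and 1.88. Across spots of 5000 UMIs or more within a section (1675 to 2173 spots), the correlation with the zone score was 0.518 to 0.693 for Sds and 0.1404 to 0.295 for Otc; spots share a library and their depth, so these are descriptions.

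**Figure D2:**
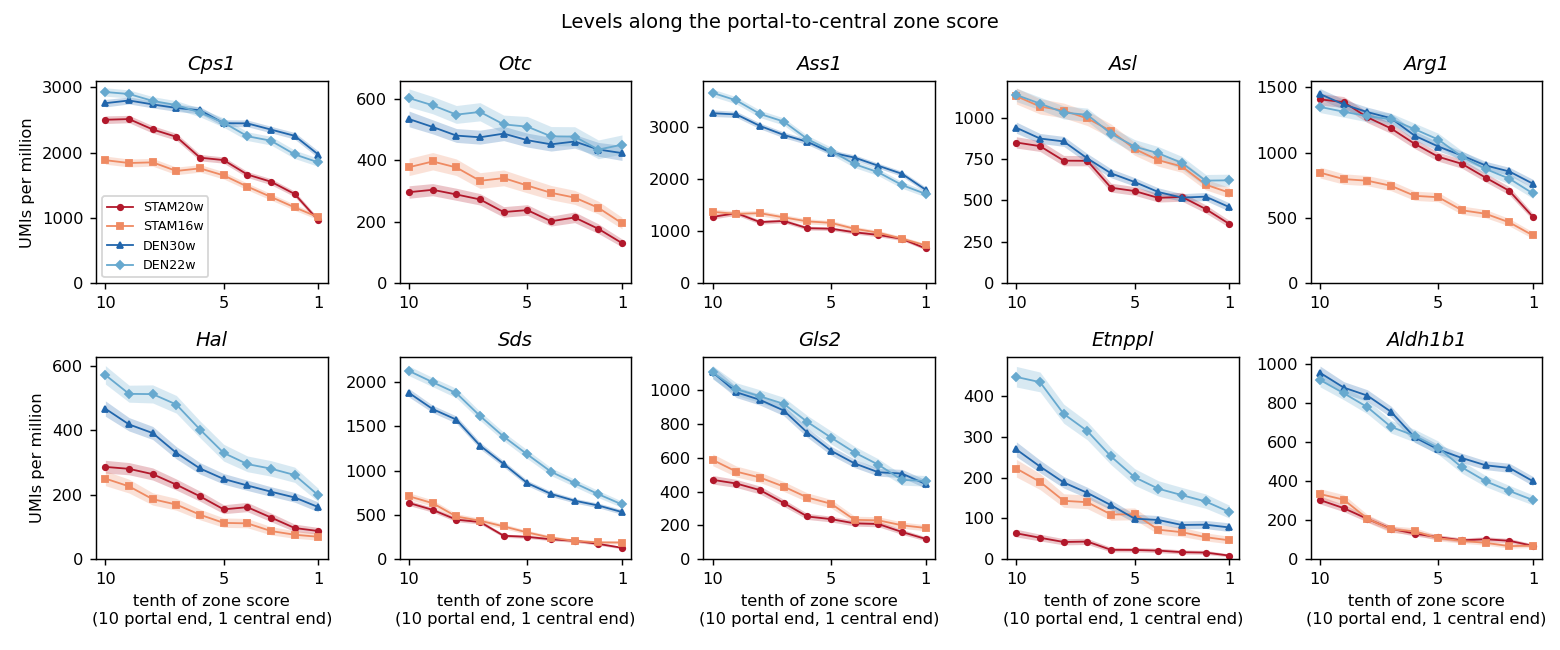
Level of each gene (vertical axis, CPM) in 10 equal parts of each section's spots, from the portal end (10, left) to the central end (1, right); bands are exact 95% counting intervals. Etnppl, Sds and Aldh1b1 decline steeply toward the central end, whereas Otc and Cps1 keep a larger part of their portal level there in DEN30w and DEN22w.

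Other features moved with the zones. Median UMIs per spot were 13799, 9286, 11027 and 9539.5 in the portal zone of STAM20w, STAM16w, DEN30w and DEN22w. The central zone had 13047, 10338.5, 9615 and 6165 in the same order, so STAM16w alone had deeper central spots. Summed hepatocyte markers were higher portally in 3 of 4 sections, at 56469, 43875, 74731 and 88923 CPM in the portal zone of STAM20w, STAM16w, DEN30w and DEN22w, against 42149, 34288, 76838 and 82659.7 CPM in the central zone. Of 6 fibroblast markers 3 were called lower on the portal side, and of 6 macrophage markers 5. Summed fibroblast markers had 386, 204, 294 and 187 CPM in portal spots of STAM20w, STAM16w, DEN30w and DEN22w, against 423, 231, 633 and 418 CPM in central spots. Macrophage markers had 686, 460.3, 638 and 403 CPM against 896, 495, 1101 and 854 CPM in the same order, and both gaps were wider in the DEN+CCl4 sections. The part of these cells in the gradients was not tested. When libraries were scaled to the hepatocyte markers, an alternative added after seeing the data, 9 of 10 members still passed as higher portally. In that fit 0.912% of all genes were called higher and 35.7% lower, and their median moved to -0.30. Otc had 0.27 there (SE 0.13, adjusted p = 0.0866 by edgeR). Without section as a block, none of the 10 passed and 1 gene of 12610 did, since the sections' own levels then entered the error. In that edgeR fit 7 members had an unadjusted p under 0.05, as did 260 of all 12610 genes.

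Other amino acid genes, from a list of 79 that held no member, were split by zone. Of 76 tested, 32 were higher and 10 lower in the portal zone, 55.3% in all, against 9.57% of all genes in either direction. The rest of the histidine pathway after Hal passed in the portal direction by edgeR, with Amdhd1 (0.9996 log2), Ftcd (0.99) and Uroc1 (0.90), 3 of 3 called higher. Gldc of the glycine cleavage system (1.21), Sdsl, a paralogue of Sds (1.02), and the alanine-glyoxylate aminotransferase gene Agxt (0.69) were also higher, as was the aspartate aminotransferase gene Got1 (0.97). Some genes of ammonia capture ran the other way. Glul was at -1.48, the glutamate carrier Slc1a2 at -1.85 and the ammonium carrier Rhbg at -1.51, all lower portally with edgeR adjusted p from 9e-07 to 5.5e-06. They belong to a list of 10 genes of glutamine and glutamate, of which 3 were called higher and 5 lower. Of 5 tested genes that supply the urea cycle, 1 was called higher and 1 lower, with a median of 0.0072.

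Whether the gradients differed between the models was tested as an interaction of zone and model. None of the 10 members passed by edgeR, where 1.78% of 13304 genes did, 1.1% upward and 0.684% downward. At an unadjusted p under 0.05 there were 4 members and 1698 of all 13304 genes. A positive value means a steeper portal slope in STAM. Estimates were 0.43 (SE 0.13, adjusted p = 0.0989) for Aldh1b1 and 0.33 (SE 0.11, adjusted p = 0.16) for Otc on the log2 scale. They were 0.27 for Gls2 and 0.25 for Cps1, and -0.19 for Ass1, whose estimate had the other sign. Aldh1b1 alone was called without a filter on low counts and without STAM20w or DEN22w, fits that called 1.28%, 1.5% and 0.698% of all genes upward. Leaving out a section leaves 1 model with a lone section, assumed to vary as the others do. With hepatocyte scaling Ass1 alone was called, at -0.44, where 5.88% of all genes were called downward and their median moved to -0.26. Among the other amino acid genes 11 of 77 passed, 10 of them negative. Among these were the ornithine aminotransferase gene Oat (-0.93), Tdo2 (-0.54) of tryptophan breakdown, and Glul (-0.55). Markers of other cells moved in the same test: 5 of 6 fibroblast, 2 of 6 macrophage and 1 of 5 B and plasma cell markers were called positive, as were 2 of 8 hepatocyte markers, and their part in the amino acid genes was not tested.

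The next comparison set the whole sections of the 2 models against each other. Both STAM sections lay below both DEN+CCl4 sections for 9 of the 10 members, all but Asl, yet 57.7% of 14417 genes did not overlap between the models and 39.2% were lower in STAM without overlap. None of the 10 members passed edgeR's test, against 0.437% of all genes (0.291% higher and 0.146% lower in STAM). An unadjusted p under 0.05 was found for 5 members and for 3305 of all 14417 genes. The summed members stood at 5297 ± 413 CPM in STAM sections and 10866 ± 722 CPM in DEN+CCl4 sections (SD, n = 2 each). The gap was wider for the summed amino acid enzymes in these sections. Their sum was 0.310 of the DEN+CCl4 mean in STAM, and the urea cycle sum 0.563. Single genes of the 2 groups overlapped, with Ass1 at 0.372, Gls2 at 0.390 and Hal at 0.436.

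Aldh1b1 had 152 and 153 CPM in STAM20w and STAM16w, against 655 and 628 CPM in DEN30w and DEN22w. The 2 STAM values were nearly equal and far below the DEN+CCl4 pair, with a log2 difference of -1.90 (SE 0.26, adjusted p = 0.0591) by edgeR. Sds had 283 and 368 CPM in STAM20w and STAM16w, against 1104 and 1422 CPM in DEN30w and DEN22w, a log2 difference of -1.78 (SE 0.36, adjusted p = 0.0871). Etnppl had 26.0 and 113 CPM in STAM20w and STAM16w, against 143 and 278 CPM in DEN30w and DEN22w. STAM16w and DEN30w were close for Etnppl and its sections spread widely within each model, which left -1.41 (SE 0.76, adjusted p = 0.319). Gls2, the source of ammonia from glutamine, stood at 252 and 349 CPM in STAM20w and STAM16w, against 741 and 799.5 CPM in DEN30w and DEN22w (log2 difference -1.18, SE 0.33, adjusted p = 0.128). Hal stood at 165 and 140.1 CPM in STAM20w and STAM16w, against 296 and 404 CPM in DEN30w and DEN22w (log2 difference -1.04, SE 0.29, adjusted p = 0.126).

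In the urea cycle, Ass1 had the largest gap, with 898 and 1117 CPM in STAM20w and STAM16w, against 2629 and 2784 CPM in DEN30w and DEN22w, a log2 difference of -1.25 (SE 0.36, adjusted p = 0.131) by edgeR. Cps1 had 1617 and 1554 CPM in STAM20w and STAM16w, against 2522 and 2521 CPM in DEN30w and DEN22w. Its DEN+CCl4 sections were almost identical, and the log2 difference was -0.50 (SE 0.33, adjusted p = 0.401). Both STAM sections were lower, and the same order held for Otc and Arg1. Otc had 199.5 and 313 CPM in STAM20w and STAM16w, against 472 and 523 CPM in DEN30w and DEN22w (log2 difference -0.77, SE 0.35, adjusted p = 0.258). Arg1 had 888 and 636 CPM in STAM20w and STAM16w, against 1113 and 1113 CPM in DEN30w and DEN22w (log2 difference -0.39, SE 0.30, adjusted p = 0.483). Asl had 523 and 846 CPM in STAM20w and STAM16w, against 680.04 and 903 CPM in DEN30w and DEN22w, and the order of its sections crossed the models, with STAM16w above DEN30w (log2 difference -0.030, SE 0.40, adjusted p = 0.976). DESeq2 called 5 members lower in STAM (Ass1, Hal, Sds, Gls2 and Aldh1b1), edgeR without a filter on low counts 5 (Hal, Sds, Gls2, Etnppl and Aldh1b1), and edgeR without STAM16w Aldh1b1 alone. These fits also called more genes in all, with 4.27%, 4.02% and 2.54% of genes lower in STAM. The last has 1 STAM section, assumed to vary as the DEN+CCl4 pair does.

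**Figure D3:**
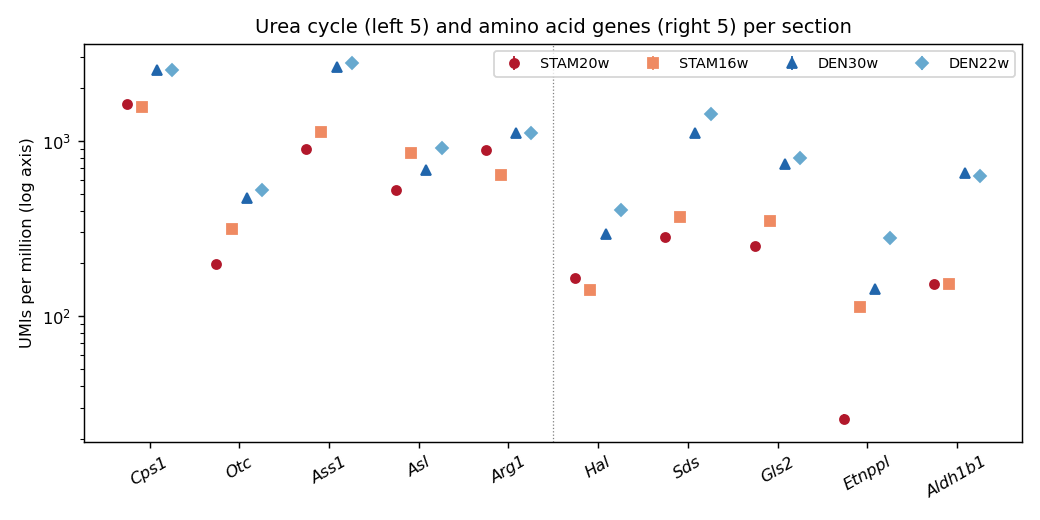
Level of each gene per section (vertical log axis, CPM) over all kept spots, with exact 95% counting intervals mostly smaller than the points. For every gene except Asl both STAM sections (red and orange) lie below both DEN+CCl4 sections (blue), and Etnppl in STAM20w is at 26.0.

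The hepatocyte markers also differed between the models, at 47739 and 38538 CPM in STAM20w and STAM16w, against 75685 and 86084 CPM in DEN30w and DEN22w. Scaling to them moved the median log2 difference of all genes to 0.73; Arg1, Asl and Cps1 were then positive at 0.34, 0.76 and 0.25, and Aldh1b1 alone was called, at -1.16, with 0.895% of all genes lower. The part of hepatocyte content beyond this scaling was not tested. Of 77 other amino acid genes 2 passed between whole sections by edgeR. Glul was higher in STAM by 3.38 on the log2 scale, with 454 and 569 CPM in STAM20w and STAM16w, against 53.7 and 57.8 CPM in DEN30w and DEN22w. Csad, of taurine synthesis, was lower at -2.09.

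Within the portal zone the models were compared again. None of the 10 members passed by edgeR, against 0.776% of 12627 genes (0.467% higher and 0.309% lower in STAM). Of the members 5 had an unadjusted p under 0.05, as did 2719 of all 12627 genes. Sds had 539.95 and 592 CPM in portal spots of STAM20w and STAM16w, against 1669 and 1968 CPM in DEN30w and DEN22w (log2 difference -1.58, SE 0.31, adjusted p = 0.084). Aldh1b1 had 248 and 266 CPM, against 877 and 841 CPM (log2 difference -1.63, SE 0.27, adjusted p = 0.0617). In CPM, for both genes the STAM portal zone lay below even the DEN+CCl4 central zone. The latter had 622 and 762 CPM of Sds and 465 and 359.6 CPM of Aldh1b1 in DEN30w and DEN22w. Summed hepatocyte markers had the same order, with 56469 and 43875 CPM in the portal zone of STAM20w and STAM16w. They had 76838 and 82659.7 CPM in the central zone of DEN30w and DEN22w. No fit scaled to these markers was run within the portal zone, and their part in this order was not tested. DESeq2 called 4 members lower (Ass1, Sds, Gls2 and Aldh1b1), the fit without a filter 4 (Ass1, Sds, Etnppl and Aldh1b1) and the fit without STAM16w 3 (Sds, Etnppl and Aldh1b1). Of all genes these fits called 2.69%, 5.21% and 4.7% lower. The fit without STAM16w again takes its spread from the DEN+CCl4 pair alone, and fits that leave out 1 section called 7 to 1232 genes.

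The 2 times of each model are given next as values with no test, since each time has a single section. In STAM, 1 of 10 members differed at least 2-fold at 50 CPM or more, Etnppl, which was lower in the later section; 3.71% of 2775 genes did so in that direction and 11.1% in either, with 7.42% higher. Etnppl had 26.0 CPM in STAM20w, against 113 CPM in STAM16w, a fold of 0.230 (interval 0.214 to 0.248). The fold was 0.291 within the portal zone and 0.264 within the central zone, so both ends of the lobule showed it. Asl had 523 CPM in STAM20w, against 846 CPM in STAM16w, a fold of 0.619 (interval 0.607 to 0.632). Otc had 199.5 CPM in STAM20w, against 313 CPM in STAM16w, a fold of 0.638 (interval 0.617 to 0.659). Gls2, Sds and Ass1 had folds of 0.722, 0.769 and 0.804, and Aldh1b1 and Cps1 were near level at 0.996 and 1.04. These folds are over all kept spots, with the compact patches of STAM20w included. Arg1 ran the other way, with 888 CPM in STAM20w, against 636 CPM in STAM16w, a fold of 1.40 (interval 1.37 to 1.43). Arg1 and Asl, which follow each other in the urea cycle, thus had opposite directions in STAM20w over STAM16w.

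In DEN+CCl4, none of the 10 members reached 2-fold, against 4.09% of 2906 genes (2.58% higher and 1.51% lower). Etnppl came nearest, with 143 CPM in DEN30w, against 278 CPM in DEN22w, a fold of 0.516 (interval 0.497 to 0.535). It was thus the member with the lowest later over earlier fold in both models. Hal had 296 CPM in DEN30w, against 404 CPM in DEN22w, a fold of 0.732 (interval 0.712 to 0.753). In STAM, by contrast, Hal had 165 CPM in STAM20w, against 140.1 CPM in STAM16w, a fold of 1.18 (interval 1.13 to 1.23). Asl and Sds had folds of 0.753 and 0.776, and the other 6 members lay between 0.903 and 1.04. The hepatocyte markers had folds of 1.24 in STAM and 0.879 in DEN+CCl4; per hepatocyte-marker UMI the Etnppl folds were 0.186 and 0.587, and Hal in STAM was at 0.952. Without the compact patches the STAM fold of every member was higher, with Cps1 at 1.22, Hal at 1.34 and Arg1 at 1.60. Ass1 was then at 0.940, Sds at 0.894, Gls2 at 0.811, Otc at 0.750, Asl at 0.723 and Etnppl at 0.275. The fold of the summed members in STAM was 0.896 with the patches and 1.04 without them.

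Regions within a section were found by clustering spots without the members and without the other amino acid genes. In STAM20w, 3 regions were compact patches, each under 15% of the spots with at least 80% of spot contacts inside the patch. No histology was used here, and the patches are named by their leading genes. The patch led by Maoa, Plat, Cpe and Cyp1a2 (181 spots) had low levels of all 10 members, with a sum of 1389 against 5790.5 CPM outside the patches, a ratio of 0.240 (interval 0.234 to 0.246). Cps1 stood at 377 against 1891 CPM, Arg1 at 192 against 1018 CPM and Sds at 63.4 against 329 CPM. The ratio was closest to 1 for Asl, at 204 against 611 CPM. Glul went the other way, at 1243 against 386 CPM, and so did Oat, at 2509 against 1142 CPM. The hepatocyte markers were at 25893 against 50613 CPM in the rest of the section, a ratio of 0.512, and the member sum had a ratio of 0.254 to the same rest. The 8 portal landmarks had 969 against 4176 CPM and the 8 central landmarks 5389 against 3094 CPM there.

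The patch led by Afp, H19 and Fabp4 (220 spots), genes of fetal liver and lipid binding, had a member sum of 2960.2 against 5790.5 CPM outside the patches. The urea cycle sum was lower there than the amino acid enzyme sum, at 0.462 and 0.753 of the outside level. Single genes of the 2 groups overlapped, with Etnppl at a ratio of 0.374 and Gls2 at 0.578. Cps1 was at 0.540, Arg1 at 0.508 and Otc at 0.405. Ass1 was at 349.6 against 1050.2 CPM and Asl at 235 against 611 CPM, whereas Sds was at 250.2 against 329 CPM and Aldh1b1 at 187 against 153 CPM. Its hepatocyte markers were high, at 62518 against 46424 CPM in the rest of the section. Glul, at 113 against 386 CPM, and Oat, at 241 against 1142 CPM, were also low in this patch.

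In the patch led by Cib3, Akr1c18 and Gsta1 (264 spots) the members went separate ways. Aldh1b1 stood at 333 against 153 CPM outside the patches, Gls2 at 372 against 283 CPM and Arg1 at 1165 against 1018 CPM, all higher in the patch. Sds, with 145 against 329 CPM, Asl, with 399.6 against 611 CPM, and Cps1, with 1319 against 1891 CPM, were lower, as were Otc, Ass1 and Etnppl at ratios of 0.711, 0.757 and 0.688. Hal was close to level at a ratio of 0.891 (interval 0.793 to 0.998). Each patch lies in 1 section, so these ratios have no replicate check and no test.

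**Figure D4:**
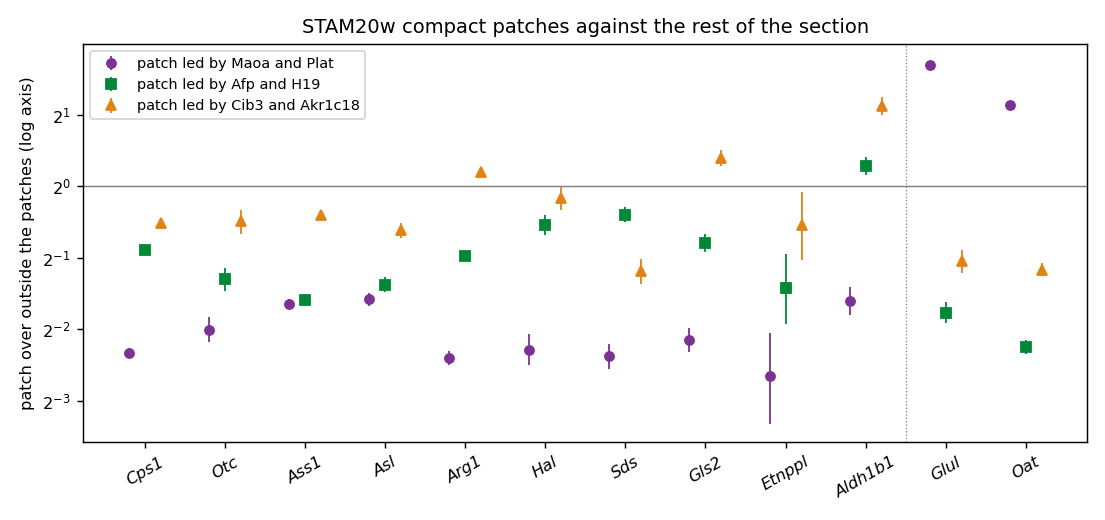
Level in each compact patch of STAM20w over the level outside the 3 patches (vertical log axis, ratio), with exact 95% counting intervals, for the 10 genes and for Glul and Oat. In the Maoa and Plat patch all 10 genes lie below 1 and Glul and Oat above it; in the Cib3 and Akr1c18 patch Aldh1b1, Gls2 and Arg1 lie above 1.

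Levels also differed among the other regions. In STAM20w the region led by Saa2, Saa1 and Noct (335 spots) had the highest member sum, 9043 against 4435 CPM in the rest of the section, with Etnppl at 70.7 against 19.7 CPM and Sds at 709.9 against 223 CPM. In STAM16w the region led by Hsd17b13 and Cyp2f2 (480 spots) stood at 7429.7 against 5123 CPM, and the one led by Meg3 and Lhpp (627 spots) at 3956 against 6452 CPM. In DEN30w the lowest region was led by Meg3 and Cyp2a5 (868 spots), at 7903 against 11380.3 CPM, with macrophage markers at 1174 against 734 CPM. In DEN22w it was led by Gstm3 and Gpnmb (490 spots), at 7569 against 12162 CPM, with Etnppl at 134 against 308 CPM and Otc at 443 against 539.7 CPM. Macrophage markers were at 1093 against 475 CPM and fibroblast markers at 506 against 235 CPM in that region. Their part in the low member levels was not tested; hepatocyte markers there were at 0.912 of the rest, and the member sum at 0.622.

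**Figure D5:**
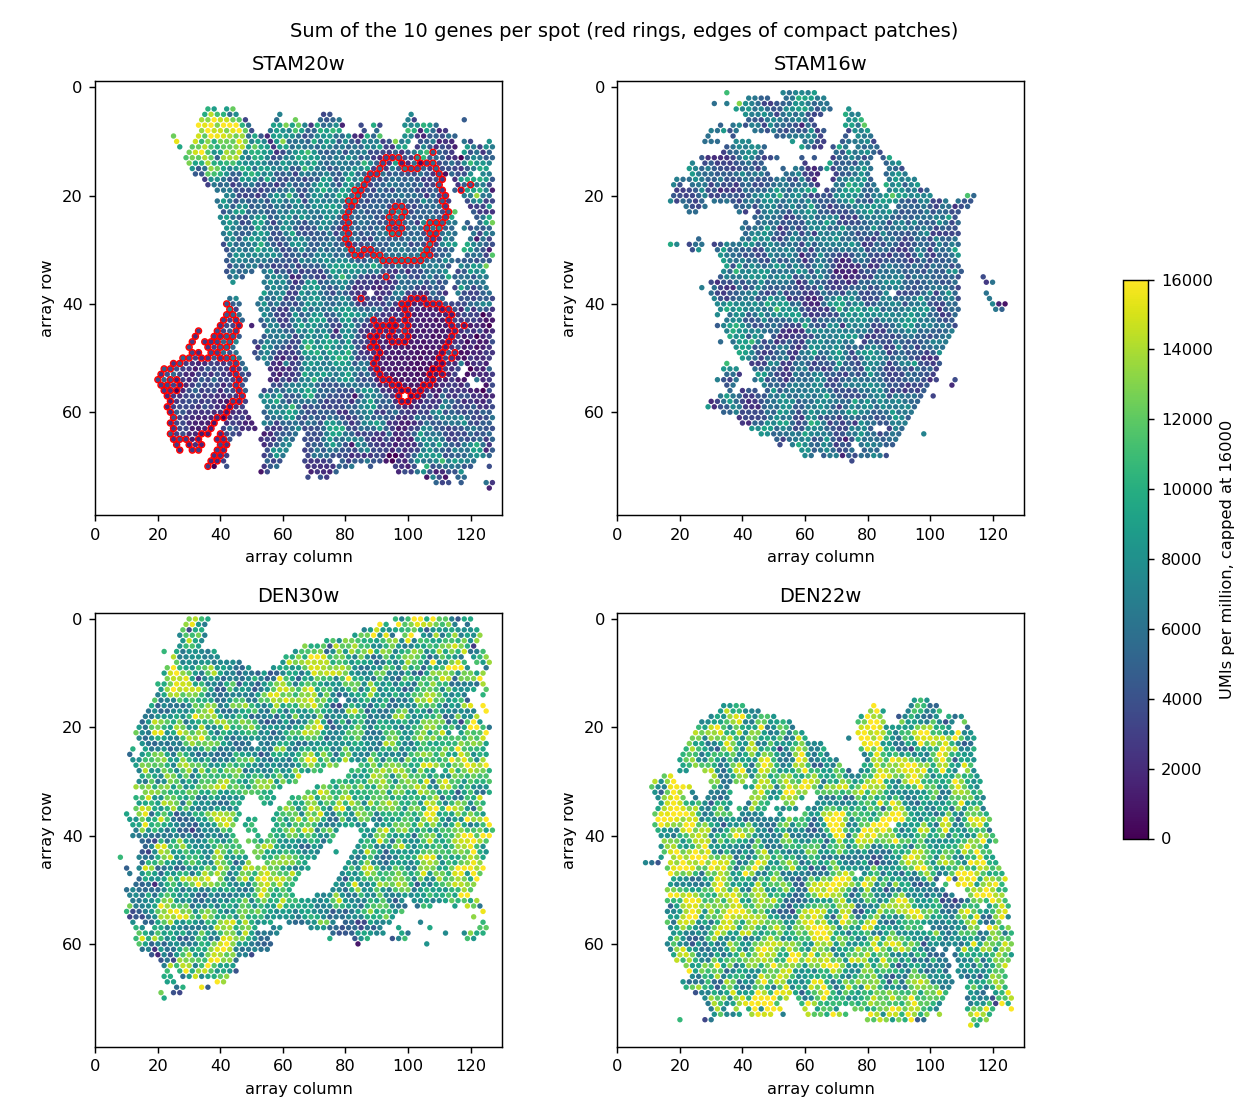
Summed level of the 10 genes in each spot (colour, CPM, capped at 16000), drawn at its array row and column; red rings mark edge spots of the 3 compact patches of STAM20w. STAM20w and STAM16w have medians of 4757 and 5598, DEN30w and DEN22w medians of 9850.3 and 10687, and the DEN+CCl4 sections show repeated high and low islands.

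The study asks about the surroundings of Mycn, a MYC family proto-oncogene. Spots without a Mycn UMI that touched a Mycn-detected spot were matched on UMI total to spots that touched none, giving 56, 59, 78 and 65 pairs in STAM20w, STAM16w, DEN30w and DEN22w. None of the 10 members passed by edgeR, against 0.165% of 6654 genes (0.105% higher and 0.0601% lower). By edgeR 7 members had an unadjusted p under 0.05, as did 405 of all 6654 genes. By DESeq2 2 members did, and that fit called 0 of 6654 genes and gave 27 at that level. All 10 estimates were negative, with a median of -0.14 against 0.0018 over all genes. The 8 hepatocyte markers were also all negative (median -0.095), 3 of 3 erythroid markers were called lower (median -0.93) and the 1 tested B and plasma cell marker was called higher (1.24). Their part in the member values was not tested. In single sections, Cps1, Asl, Arg1 and Aldh1b1 were negative in 4 of 4. Otc, Sds and Gls2 were negative in 3 of 4, and Ass1, Hal and Etnppl in 2 of 4. Arg1 was nearest to passing, with log2 differences of -0.29, -0.31, -0.019 and -0.23 in STAM20w, STAM16w, DEN30w and DEN22w and an estimate of -0.21 (SE 0.056, adjusted p = 0.0933). Aldh1b1 gave -0.31, -0.43, -0.16 and -0.25 in the same sections and -0.25 (SE 0.073, adjusted p = 0.195). Arg1 alone was called without DEN30w, at -0.30 (SE 0.071, adjusted p = 0.014). The call depended on which distant spots were used. With those nearest in depth to the Mycn-detected spots themselves set aside, an alternative added after seeing the data, Arg1 alone was called, at -0.23 (SE 0.057, adjusted p = 0.04), and 0.0903% of genes were lower. When the distant spots were matched on zone as well, Arg1 was at -0.073, Aldh1b1 at -0.17, and Cps1, Ass1, Hal and Etnppl turned positive, at 0.031, 0.011, 0.012 and 0.13.

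Genes with the most similar pattern were sought over 40 bins, 4 sections by 10 parts of the zone score, by correlation with the mean of the members' standardised log2 levels. Among 2510 genes outside the members, landmarks and amino acid list, those with the highest values included Sfxn1 (r = 0.973), Apoc3 (0.964), Aspg (0.942), Hsd11b1 (0.942), Pigr (0.941), Hamp (0.928), Acly (0.907), Aldh1l1 (0.902) and Uox (0.901). Bins of a section share its library, so these values describe the 4 sections. Of the members themselves, Sds and Gls2 were each other's nearest gene (r = 0.988). The nearest to Cps1 was Amdhd1 (0.946), to Otc Uroc1 (0.980), to Ass1 Aldh1l1 (0.981), to Arg1 the landmark Igf1 (0.979) and to Etnppl Ftcd (0.973). Between single spots the 45 pairs of members had median correlations of 0.422, 0.269, 0.370 and 0.347 in STAM20w, STAM16w, DEN30w and DEN22w, with the highest for Cps1 and Arg1 in STAM20w (0.673).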

How the data were processed

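UMI counts per gene and spot were deposited by the authors as raw whole numbers. The submitters' processing notes name Space Ranger 1.3.1, STAR and the mm10 build; the annotation version was not given in the sources used here. The members and gene lists were chosen with earlier results of these data known. Spots with at least 500 UMIs and 250 genes were kept. Spots with 10 or more landmark UMIs received a zone score, the log2 ratio of portal to central landmark CPM with 100 added to each; 263 to 575 spots per section lay within 0.1 of a cut. UMIs were added up over each class of spots within a section and tested with edgeR 4.0.16 (quasi-likelihood test, TMM, filterByExpr) over all genes with Benjamini-Hochberg adjustment at 0.05; the scripts were tested on simulated data. DESeq2 1.42.0, other filters and scalings, and leaving out each section were the alternatives. Neighbour spots were matched within 0.1 on the log10 UMI scale. Regions were Leiden clusters (leidenalg 0.10.2, resolution 0.8, 20 principal components, 2000 variable genes). Barcodes shared between sections (up to 2091) come from the common array layout. The named genes were all members, up to 10 called genes of the amino acid list per comparison by smallest p, the 10 genes of nearest pattern and the nearest genes of single members; some genes that these rules pick are not reported here. Positions and promoters are from RefSeq (GRCm38.p6); all 10 symbols matched. Tissue images were not used here.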

Additional observations from a re-analysis of the deposited data

Results flagged for a closer look

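Hal, the first enzyme of histidine breakdown, went opposite ways between times in the 2 models. Its later over earlier ratio was 1.18 in STAM (165 CPM in STAM20w, against 140.1 CPM in STAM16w) and 0.732 in DEN+CCl4 (296 CPM in DEN30w, against 404 CPM in DEN22w). Each counting interval excluded 1, but the difference between the models was not tested, since 1 section stands at each time. Within the portal zone the ratios were 1.26 and 0.786. Per hepatocyte-marker UMI they were 0.952 and 0.833, both below 1.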

How the results depend on the processing

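The portal over central calls of all 10 members held under 11 of the 13 alternatives, with every estimate positive in all 13; 9 held with hepatocyte scaling and 0 without the section block. For the interaction of zone and model the count was 0, but 1 without a low-count filter, 1 with hepatocyte scaling and 0 to 1 leaving out a section. Signs turned with hepatocyte scaling for Arg1 (-0.17), Hal (-0.078), Sds (-0.16) and Etnppl (-0.080), for Asl with the score of 3 landmarks (0.0038) and the outermost 25% at each end (0.0018), and leaving out a section for Asl (-0.10 to 0.015) and Arg1 (-0.015 to 0.17). Between the models the count of 0 became 5 with DESeq2, 5 without a filter, 1 with hepatocyte scaling and 0 to 1 leaving out a section. Hepatocyte scaling turned Cps1 (0.25), Asl (0.76) and Arg1 (0.34); leaving out the patches turned Asl (0.054), as did leaving out a section (-0.53 to 0.31). In the portal zone the count of 0 became 4 with DESeq2, 4 without a filter and 0 to 3 leaving out a section; Asl turned with the patches kept (-0.11) and leaving out a section (-0.22 to 0.30), as did Arg1 (-0.59 to 0.072). Beside Mycn-detected spots the count was 0 to 1 leaving out a section and 1 with the distant spots set aside (Arg1), where leaving out a section turned Hal (-0.16 to 0.024) and Etnppl (-0.241 to 0.00418); matching on zone turned Cps1 (0.031), Ass1 (0.011), Hal (0.012) and Etnppl (0.13). Relative to hepatocyte markers, 2 members rather than 1 reached 2-fold between the STAM times (Etnppl and Asl), and the patch sums over the rest were 0.496 (Maoa patch, 0.254 as CPM), 0.424 (Afp patch, 0.571) and 0.806 (Cib3 patch, 0.975). Over all genes the calls ranged from 1 to 4611 for zone, 37 to 839 for its interaction, 2 to 4186 between models, 7 to 1938 in the portal zone and 0 to 17 beside Mycn-detected spots. The causes of these shifts were not tested. Zone and neighbour comparisons were paired within sections by the section block. Without it the zone count went from 10 to 0, and the neighbour count stayed at 0. Between the models, replicate numbers follow accession order and no time is shared, so they pair no sections.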
